A study of Drosophila melanogaster with 4 samples.

Results

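The H3K4me1 regions described here lie outside the assembled chromosome arms of *Drosophila melanogaster*, in 6 mapped heterochromatic sequences (XHet, 2LHet, 2RHet, 3LHet, 3RHet and YHet) and in U, the sequence that holds scaffolds not placed on any chromosome. Members were chosen by sequence name alone: all regions of these 7 sequences in the 3 deposited region lists. There were 34 such regions among the 7785 of ChIP replicate 1, 123 among the 8341 of ChIP replicate 2, and 96 among the 9680 of the combined list, which the authors called for the replicate set. Together the 7 sequences are 19.3 Mb long, of which U makes up 10.0 Mb.

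H3K4me1 is monomethylation of lysine 4 on histone H3. It marks enhancers and the flanks of active promoters. Pericentric heterochromatin of the fly is made largely of satellite DNA and transposon remnants, is packed with histone H3 methylated at lysine 9 and the protein HP1, and holds few genes per length of sequence, some of which are expressed only in that surrounding. The Het sequences of FlyBase release 5 hold a part of this heterochromatin that was assigned to a chromosome or arm but lies outside the assembled arms. Most of the fly Y is heterochromatic, and its few protein-coding genes are known chiefly for roles in male fertility. U joins unrelated scaffolds end to end, so neighbours in U need not be neighbours in the nucleus.

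The libraries came from head nuclei of wild-type Oregon-R adults of mixed stage, kept in population cages, with heads separated by sieving; the labels did not give the sex. Chromatin was treated with formaldehyde, sonicated and precipitated with the H3K4me1 antibody ab8895, in 2 ChIP libraries with 1 input library each. No other genotype, tissue or treatment was compared. Separate fly populations for the 2 replicates were not stated, and the spread between them may be technical. Head nuclei are a mixture of cell types, and a mark on few nuclei cannot be told apart from a weak mark on many. The lists held no read numbers, so the depth behind each region was unknown and no interval for a single score could be given. The region lists hold no expression values, and the head identity of the nuclei was therefore not checked.

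H3K4me1 regions covered about 1% of the heterochromatic and unplaced sequence. The covered share averaged 0.914% ± 0.744 over the 7 sequences and 22.5% ± 2.47 over the chromosome arms and chromosome 4 (SD, n = 2 replicates each). Chromosome 4, the small and repeat-rich dot chromosome, averaged 33.3% ± 6.48 (SD, n = 2). In regions per Mb, the 7 sequences held 1.76 in replicate 1 and 6.36 in replicate 2, whereas the rest of the genome held 64.4 and 68.3. Both replicates thus placed far fewer regions here than in the rest, and the spread between the replicates was large relative to the mean. Lengths were taken as the headers give them, and bases to which reads cannot be assigned were not removed. The effect of such bases on the covered share was not tested. With 2 replicates of 1 condition and with regions of 1 library that are not replicates, differences between sequences were not tested.

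XHet stood highest among the 7 sequences in every list. Replicate 1 covered 8.80% of it, replicate 2 6.64% and the combined list 11.4%, with a mean of 7.72% ± 1.53 (SD, n = 2 replicates). The next values were those of 3LHet in replicate 1, at 0.750%, and of 2LHet in replicate 2, at 2.26%, and in the combined list, at 1.97%. XHet was also the only one of the 7 that replicate 1 covered more than replicate 2. The other 6 were covered to between 0% and 0.750% in replicate 1 and to between 0.792% and 2.26% in replicate 2.

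**Figure D1:**
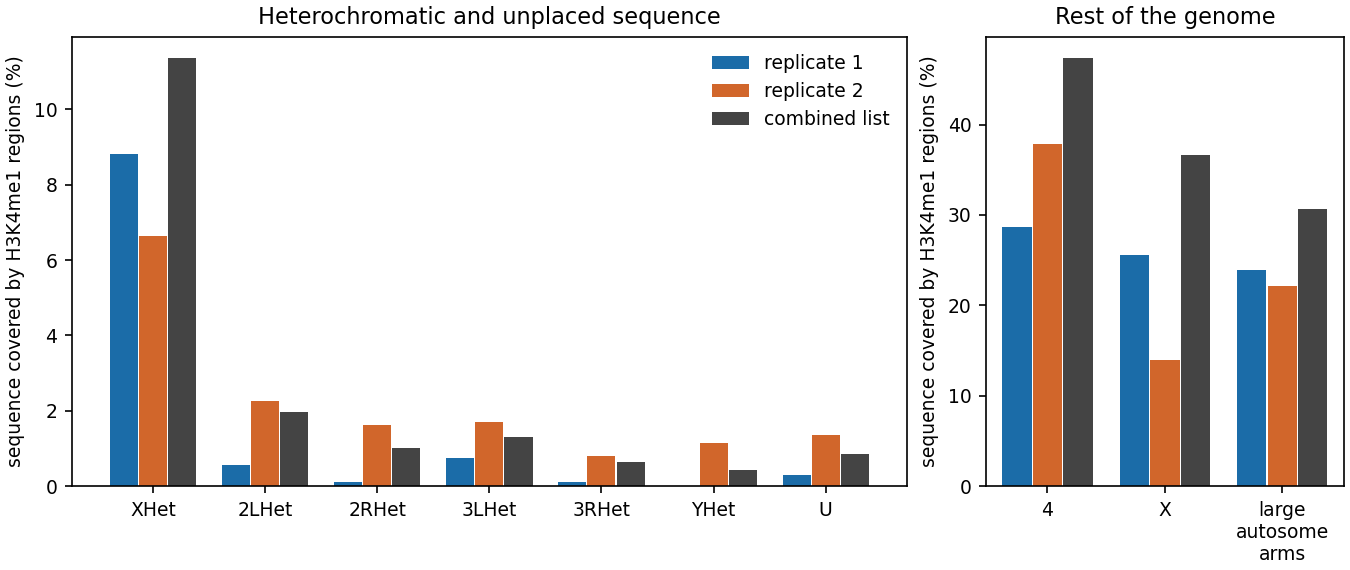
Share of each sequence covered by H3K4me1 regions, in percent of its full length, with 1 bar per list; the 2 panels have different vertical scales. XHet reaches 8.80% in replicate 1 and 6.64% in replicate 2, the other 6 sequences stay at or below 2.26% in both replicates, and chromosome 4 and the arms lie at 13.9% or more.

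Along the sequences, regions were unevenly placed and long stretches had none. No list had a region in 3LHet between 712132 and 1562397, a stretch of 850 kb or 33.3% of that sequence. The longest stretch without a region of any list was 925 kb in 2RHet, from 1851661 to 2776281, and 1114 kb in 3RHet, from 161090 to 1275552. In U the longest was 1093 kb, from 4209718 to 5302813. YHet had none in its first 306 kb, which is 88.1% of its length. The shorter sequences XHet and 2LHet also had empty stretches, of 83.9 kb from 96899 to 180830 (41.1% of XHet) and of 114 kb from 254815 to 368872 (30.9% of 2LHet).

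**Figure D2:**
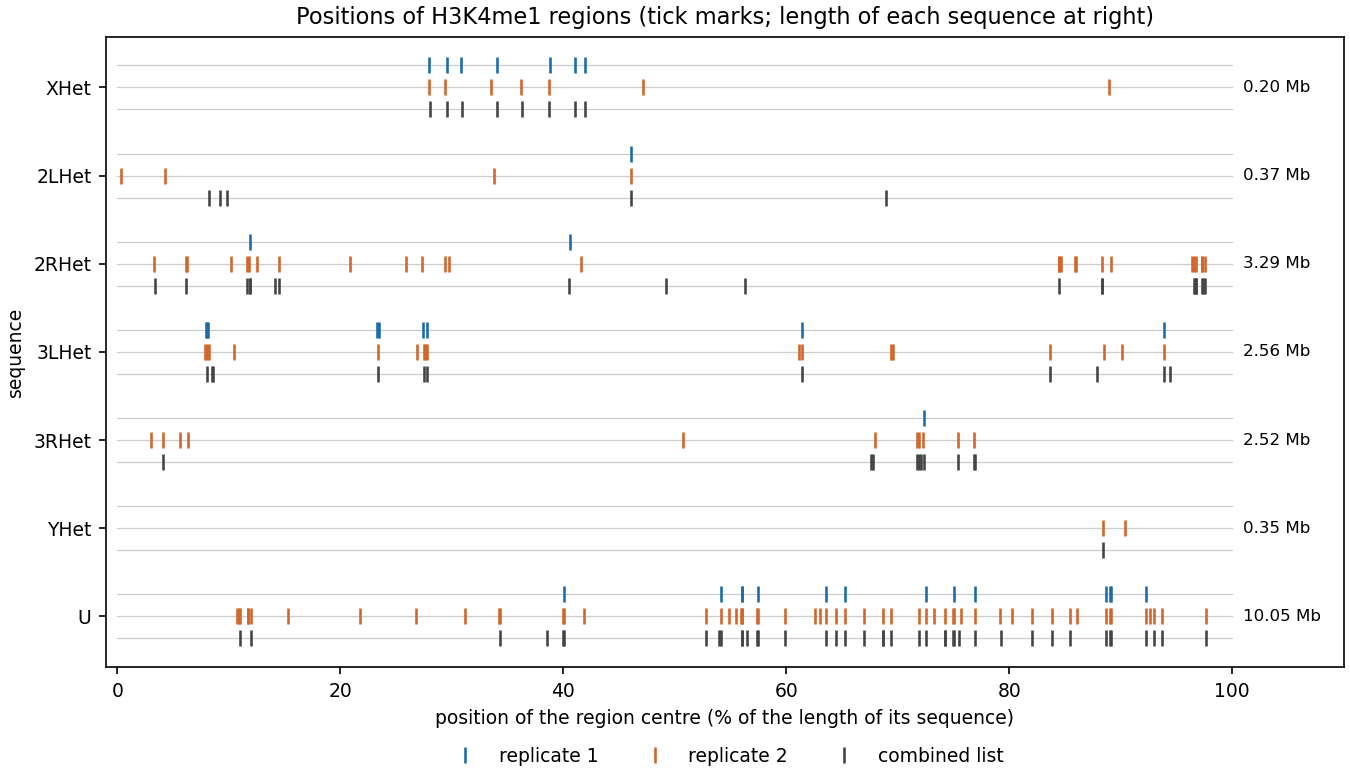
Position of the centre of each H3K4me1 region as a percentage of the length of its sequence, with 1 row of tick marks per list; the length of each sequence stands at the right. Regions of XHet crowd into 1 stretch, those of U lie mostly past the middle, and replicate 2 has more marks than replicate 1 on each sequence but XHet, where both have 7.

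In XHet, which is 0.204 Mb long, all 8 combined-list regions and all 7 replicate 1 regions lay in 1 island. An island is here 2 or more regions of 1 sequence whose neighbours are at most 10 kb apart. The combined-list island ran from 55880 to 86484, a span of 30.6 kb of which 75.7% was covered, with gaps between 100 and 2639 bp. Replicate 1 covered 58.7% of this span with 7 regions, and replicate 2 covered 35.4% with 5. The strongest region of the island by the authors' score was 76506 to 81678, with 0.97 in the combined list. Replicate 1 placed a region from 76694 to 81747 there, with a score of 0.90, and replicate 2 one from 77327 to 80636, with 1.49. Scores were the authors' own enrichment values, whose scale the file headers do not state. They are compared within a list only. Where scores of 1 place in several lists stand side by side, their sizes are not comparable.

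The other combined-list regions of XHet were 67033 to 71972 with a score of 0.74, 55880 to 58659 with 0.67, 59216 to 61421 with 0.54 and 73016 to 75035, also with 0.54. They were followed by 61960 to 64393 with 0.46, 82757 to 84657 with 0.40 and 84758 to 86484 with 0.40. Both replicates thus called regions in the left and middle of the island, and replicate 1 alone called its right end. Regions 62306 to 63691, 82759 to 84665 and 84886 to 86339 of replicate 1, with scores of 0.59, 0.55 and 0.42, had no counterpart in replicate 2. Replicate 1 regions with a counterpart were 56114 to 58129 with 0.68, 59541 to 61174 with 0.55, and 67188 to 71705 with 0.71, besides the strongest one. In replicate 2 their counterparts were 56102 to 58115 with 1.23, 58914 to 60899 with 1.05 and 67636 to 69280 with 0.68. Replicate 2 alone held 73018 to 74891 with a score of 1.01, inside the island, and 95585 to 96898 with 1.80 and 180831 to 182235 with 1.30, both outside it. Neither of these outer regions overlapped the combined list.

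In 2LHet, 0.369 Mb long, a single place was found in all 3 lists. It was 169022 to 171077 in replicate 1 with a score of 0.60, 168697 to 171283 in replicate 2 with 1.79, and 168801 to 171178 in the combined list with 0.74. Replicate 2 had 3 further regions, 280 to 1936 with a score of 2.07, 15202 to 16583 with 2.70 and 123275 to 125990 with 1.61. None of these was in the combined list. The combined list had 4 of its own, in neither replicate: 29793 to 30909 with 0.72, 33472 to 34475 with 0.52, 35409 to 37138 with 0.35 and 253770 to 254814 with 0.92. The first 3 of these formed an island of 7.35 kb, of which the combined list covered 52.4%. Beyond the shared place, replicate 2 and the combined list therefore named different positions, and replicate 1 named none.

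In 2RHet, the longest mapped sequence at 3.29 Mb, the replicates shared no region at all. Replicate 1 called 2 regions, 391494 to 393673 and 1333193 to 1334520, with scores of 0.62 and 0.50, and replicate 2 called 27. Both replicate 1 regions were in the combined list, as were 13 of the 27. Of 10 equal parts of the sequence, the last held 7 of the 20 combined-list regions, the most of any part, and the second held 5. Of the 27 replicate 2 regions, 7 lay in the ninth part, 6 in the last and 5 each in the second and the third. In the last part, islands of 4 regions (3175274 to 3184117) and 3 regions (3197748 to 3208168) in the combined list ended 105 and 80.6 kb before the end of the sequence. Replicate 2 covered 70.6% and 38.5% of their spans, and replicate 1 covered 0%. The highest-scoring combined-list region of 2RHet, 109490 to 110498 with a score of 3.07, ranked 6th in the whole list, tied with 1 other. It was only 1.01 kb wide. The replicate 2 region that overlapped it, 108769 to 110306, scored 1.20 and ranked 3185th in its own list, tied with 2 others.

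In 3LHet, 2.56 Mb long, all 9 replicate 1 regions were found again in replicate 2, among its 17. The widest combined-list region of the 7 sequences lay here, from 201690 to 209874, 8.19 kb wide with a score of 0.70. Both replicates split it into 3 pieces: 201815 to 203764, 204055 to 207466 and 207796 to 209684 in replicate 1, and 201096 to 203095, 203702 to 206789 and 208072 to 209951 in replicate 2. The island it led, which ran on to 218921, had 3 combined-list regions, and its other 2 were found in neither replicate. In both replicates, the middle piece had the highest score of the 3, 0.77 in replicate 1 and 1.33 in replicate 2. A second wide region, 594706 to 600824, was 6.12 kb wide, consisted of 2 pieces in replicate 1 and 1 in replicate 2, and was covered to 75.6% and 94.8%. Another place, an island from 700207 to 712120 in the combined list, had 34.7% of its span covered in replicate 1 and 99.5% in replicate 2. The top score among all replicate 2 regions of the genome, 3.87, belonged to 2137233 to 2139449 on 3LHet, which replicate 1 did not call.

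In 3RHet, 2.52 Mb long, 7 of the 10 combined-list regions lay in the eighth of 10 equal parts of the sequence, each 252 kb long. The largest island, of 4 regions from 1805618 to 1823155, spanned 17.5 kb and was covered to 39.9% by the combined list. It included the single replicate 1 region of 3RHet, 1820201 to 1823102, with a score of 0.59. Replicate 2 called 1819026 to 1820838 next to it, and these overlapped by 0.638 kb, the only bases of 3RHet that the replicates shared. Replicate 2 held 4 of its 11 regions in the first of these parts, where replicate 1 held none. Among them was 101582 to 103800, with a score of 3.24, the 4th highest of that list. The matching combined-list region, 101782 to 103604, was the highest-scoring of 3RHet there, with 0.82.

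In YHet, 0.347 Mb long, replicate 1 called no region. Replicate 2 called 305903 to 307903 with a score of 1.57 and 312573 to 314573 with 1.66, each 2001 bp wide. The combined list held 306087 to 307547 with 0.49. Marks on the Y can come from males only, and the share of males in either pool was not given.

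In U, all 14 replicate 1 regions were found in replicate 2, which held 55 there, and the combined list held 41. The regions lay mostly in the later part of the sequence: the first 4 Mb held 0 of the 14 replicate 1 regions, 12 of the 55 replicate 2 regions and 4 of the 41 combined-list regions. Replicate 1 covered 0% of the first 4 Mb and 0.486% of the remainder. The corresponding shares were 0.639% and 1.82% for replicate 2, and 0.135% and 1.35% for the combined list. The boundary of 4 Mb lies just before the first replicate 1 region of U, at 4028785, so the 0 depends on it. With a boundary at 5 Mb, 1 replicate 1 region, 15 replicate 2 regions and 6 combined-list regions lay before it. By combined-list score, the strongest shared region of all 7 sequences was 5435699 to 5438000, 2.30 kb wide, with 1.52. Replicate 1 gave it 1.51, the highest of its regions in these sequences, and replicate 2 gave it 2.21. In replicate 2 other shared regions scored higher, among them 6557220 to 6561682 with 2.91, 9268605 to 9271205 with 2.53 and 8948276 to 8951551 with 2.26. In the combined list it was followed by 6557408 to 6561645 with 1.48, 9268606 to 9271162 with 1.26, 8955734 to 8958008 with 1.11 and 6385119 to 6388557 with 1.05. Of the 10 highest-scoring shared regions, 8 were in U; the others were 76506 to 81678 in XHet and 707328 to 712120 in 3LHet, with 0.84. The remaining 3 of U were 8948282 to 8951510 with 1.03, 8907521 to 8909669 with 0.99 and 4028651 to 4030987 with 0.91.

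A larger share of regions lay in islands in mapped heterochromatin than in U. In the combined list, 50 of the 96 regions, or 52.1%, lay in 18 islands, against 92.7% of all combined-list regions. The shares were 52.9% in replicate 1 (background 90.6%) and 42.3% in replicate 2 (background 89.5%). With a fixed gap this share depends on density, which was 4.97 combined-list regions per Mb here and 79.6 per Mb in the rest of the genome, so the shares do not show that regions here were less grouped. By kind of sequence, 38 of 55 combined-list regions, or 69.1%, were in islands in mapped heterochromatin, and 12 of 41, or 29.3%, in U. The densities also differed between these, at 5.93 and 4.08 per Mb, so the same limit holds. XHet, at 39.2 per Mb, gave 8 of the 38. Of the 18 islands, 11 were pairs, and the 6 of U were all pairs. The median gap between neighbours in the combined list was 6.35 kb in mapped heterochromatin, 111 kb in U and 2.44 kb in the rest of the genome. Scaffold ends within U were not known, and the U islands are therefore islands of the numbering only.

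**Figure D3:**
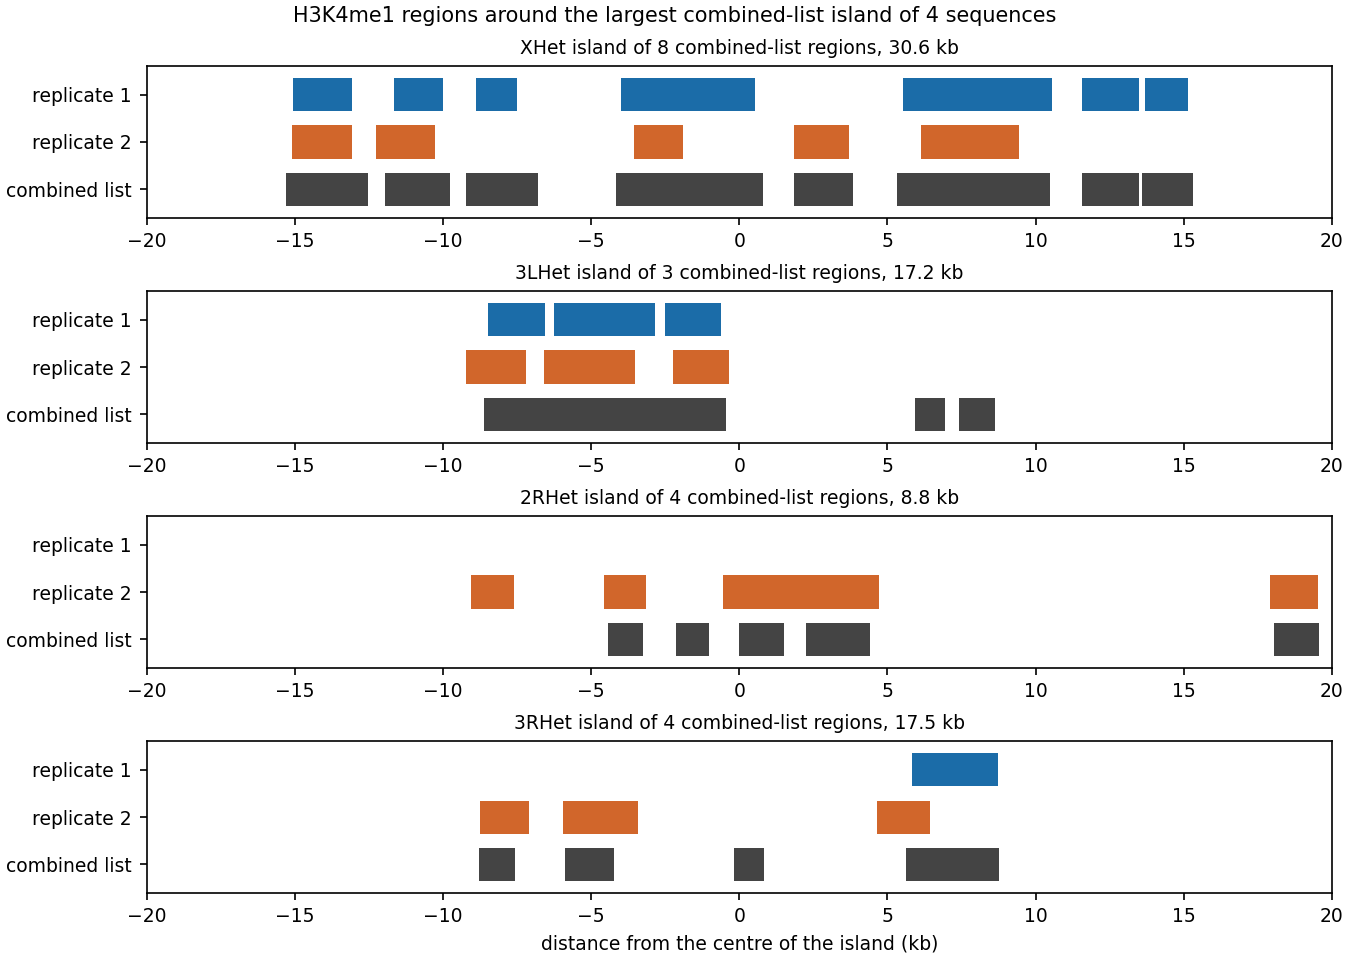
H3K4me1 regions of the 3 lists around the largest combined-list island of XHet, 3LHet, 2RHet and 3RHet, drawn as bars to scale against the distance from the centre of the island in kb. The XHet island holds 7 replicate 1 and 5 replicate 2 regions, the 3LHet one 3 of each in its left part, and the 2RHet one none of replicate 1.

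Most replicate 1 regions were found again in replicate 2, and most replicate 2 regions were not found in replicate 1. Of the replicate 1 regions, 29 of 34 or 85.3% (exact Clopper-Pearson 95% interval 68.9% to 95.0%) overlapped a replicate 2 region by at least 1 bp, against 77.3% of all replicate 1 regions. The interval included that background. Of the replicate 2 regions, 28 of 123 or 22.8% (15.7% to 31.2%) overlapped replicate 1, against 80.5% of all replicate 2 regions. Replicate 1 held only 34 regions here, so this share could not come near the background, and the unequal numbers of regions limit what it shows. Replicate 2 called more regions here (123 against 34), whereas over the rest of the genome it called 8218 against 7751. By sequence, replicate 1 regions were found again in 4 of 7 cases in XHet, 1 of 1 in 2LHet, 0 of 2 in 2RHet, 9 of 9 in 3LHet, 1 of 1 in 3RHet and 14 of 14 in U. In bases, the replicates shared 56.2 kb, which was 74.9% of the replicate 1 bases, 20.2% of the replicate 2 bases and 18.9% of the bases in either. In the rest of the genome they shared 58.5% of the bases in either.

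Joining overlapping regions of the 3 lists gave 147 separate places. Of these, 25 were in all 3 lists: 13 in U, 6 in 3LHet, 4 in XHet and 1 each in 2LHet and 3RHet. A further 39 were in replicate 2 and the combined list, 5 in replicate 1 and the combined list, 55 in replicate 2 alone and 23 in the combined list alone. No place was in replicate 1 alone, and none was in both replicates without the combined list. Thus the group in replicate 2 alone was the largest, with 22 places in U and 14 in 2RHet.

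The combined list left out many of the replicate 2 regions here. It overlapped all 34 replicate 1 regions and 68 of the 123 replicate 2 regions, or 55.3% (exact 95% interval 46.1% to 64.3%). In the rest of the genome it overlapped 99.7% of the replicate 1 regions and 94.5% of the replicate 2 regions. Of its own 96 regions, 26 or 27.1% (18.5% to 37.1%) were found in both replicates, against 52.7% of all combined-list regions. Only 31 of the 96, or 32.3%, overlapped any of the 34 replicate 1 regions, so the share in both could not reach that background. Another 42 or 43.75% were found in replicate 2 only, against 10.9% in the rest of the genome. Found in replicate 1 only were 5 or 5.21%, against 15.2% in the rest. The unequal numbers of regions in the replicates limit what these shares show. The 23 found in neither, 24.0% (15.8% to 33.7%), were close to the 21.0% of all combined-list regions. Each of the 26 shared regions was covered to between 42.7% and 99.7% by replicate 1, with a median of 79.7%. Replicate 2 covered them to between 26.3% and 100%, with a median of 95.5%.

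Regions here were narrower at the median than the pooled rest of the genome in each list. Replicate 1 regions had a median width of 2010 bp here and 2801 bp in the rest of the genome. For replicate 2 these widths were 1991 and 2215 bp, and for the combined list 1816 and 2710 bp. In replicate 2 the X, at 2000 bp, was close to the 7 sequences, and U, at 2100 bp, was wider than the X. Chromosome 4 regions were 2198 bp wide at the median for replicate 1, 2168 bp for replicate 2 and 2674 bp for the combined list. Among combined-list regions, 19 of 96 or 19.8% were narrower than 1100 bp, against 6.31% of the whole list. Regions wider than 5 kb were 1 of 34 in replicate 1, 5 of 123 in replicate 2 and 3 of 96 in the combined list. In the rest of the genome they were 1713 of 7751, 1075 of 8218 and 2343 of 9584. The 5 widest shared ones were on 3LHet and XHet: 201690 to 209874, 594706 to 600824 and 707328 to 712120 on 3LHet, and 76506 to 81678 and 67033 to 71972 on XHet. In both replicates, regions with a counterpart were wider at the median than those without. The widths were 2035 against 1454 bp for replicate 1, where 5 regions had no counterpart, and 2515 against 1891 bp for replicate 2. The order was the same in the rest of the genome, at 3392 against 1820.5 bp and 2566.5 against 1718.5 bp.

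Scores ranked differently in U and in mapped heterochromatin. In U the median score was above that of the rest of the genome in each list, at 0.78 against 0.73 in replicate 1, 1.62 against 1.09 in replicate 2 and 0.79 against 0.58 for the combined list. Pooled over mapped heterochromatin it was below the rest in replicate 1, at 0.55, and in the combined list, at 0.47, but above it in replicate 2, at 1.14. The sequences differed in this. In replicate 2, 2RHet, 3LHet and 3RHet, at 1.085, 1.017 and 1.019, were below the 1.089 of the rest. XHet, 2LHet and YHet, at 1.23, 1.93 and 1.62, were above it. In the combined list 2LHet and 3LHet, at 0.72 and 0.62, were above the rest, and the other mapped sequences were below it. As a percentile of the whole list, the median region of U stood at 57.6 in replicate 1 and 91.7 in replicate 2, and that of mapped heterochromatin at 14.7 and 55.0. Chromosome 4 stood at 19.6 and 35.5, below the list median in both replicates, whereas pooled mapped heterochromatin was below it in replicate 1 only. Taken apart, 2RHet, 3LHet and 3RHet were below the list median in replicate 2 too, at 49.4, 42.0 and 42.3. Pooled over the 7 sequences, the median percentile was 22.4 for replicate 1, 73.3 for replicate 2 and 45.0 for the combined list. Among replicate 2 regions of U, the 14 found in replicate 1 had a median score of 1.84 and the 41 not found had 1.56. In mapped heterochromatin the 14 found had 1.03 and the 54 not found had 1.14, so the order was the other way round there.

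The high ranks in replicate 2 were mostly those of U. Above the 90th percentile of the score lay 46 of the 123 replicate 2 regions, 31 of them in U, so that 37.4% of the regions here stood beside 10.0% of the whole list. The 31 were 56.4% of the U regions. In mapped heterochromatin there were 15 of 68, or 22.1%, also above that 10.0%. In replicate 1 there were 4 of 34, or 11.8%, beside 9.99%, all 4 in U. In the combined list there were 21 of 96, or 21.9%, beside 10.0%. Among the highest-scoring 1% of each list, the 7 sequences held 1 region of replicate 1, 18 of replicate 2 and 13 of the combined list. These were 2.94%, 14.6% and 13.5% of the regions here, beside 1.00%, 0.995% and 1.00% of the whole lists. Of the 10 highest scores of replicate 2, 7 belonged to these sequences, 4 of them to U.

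**Figure D4:**
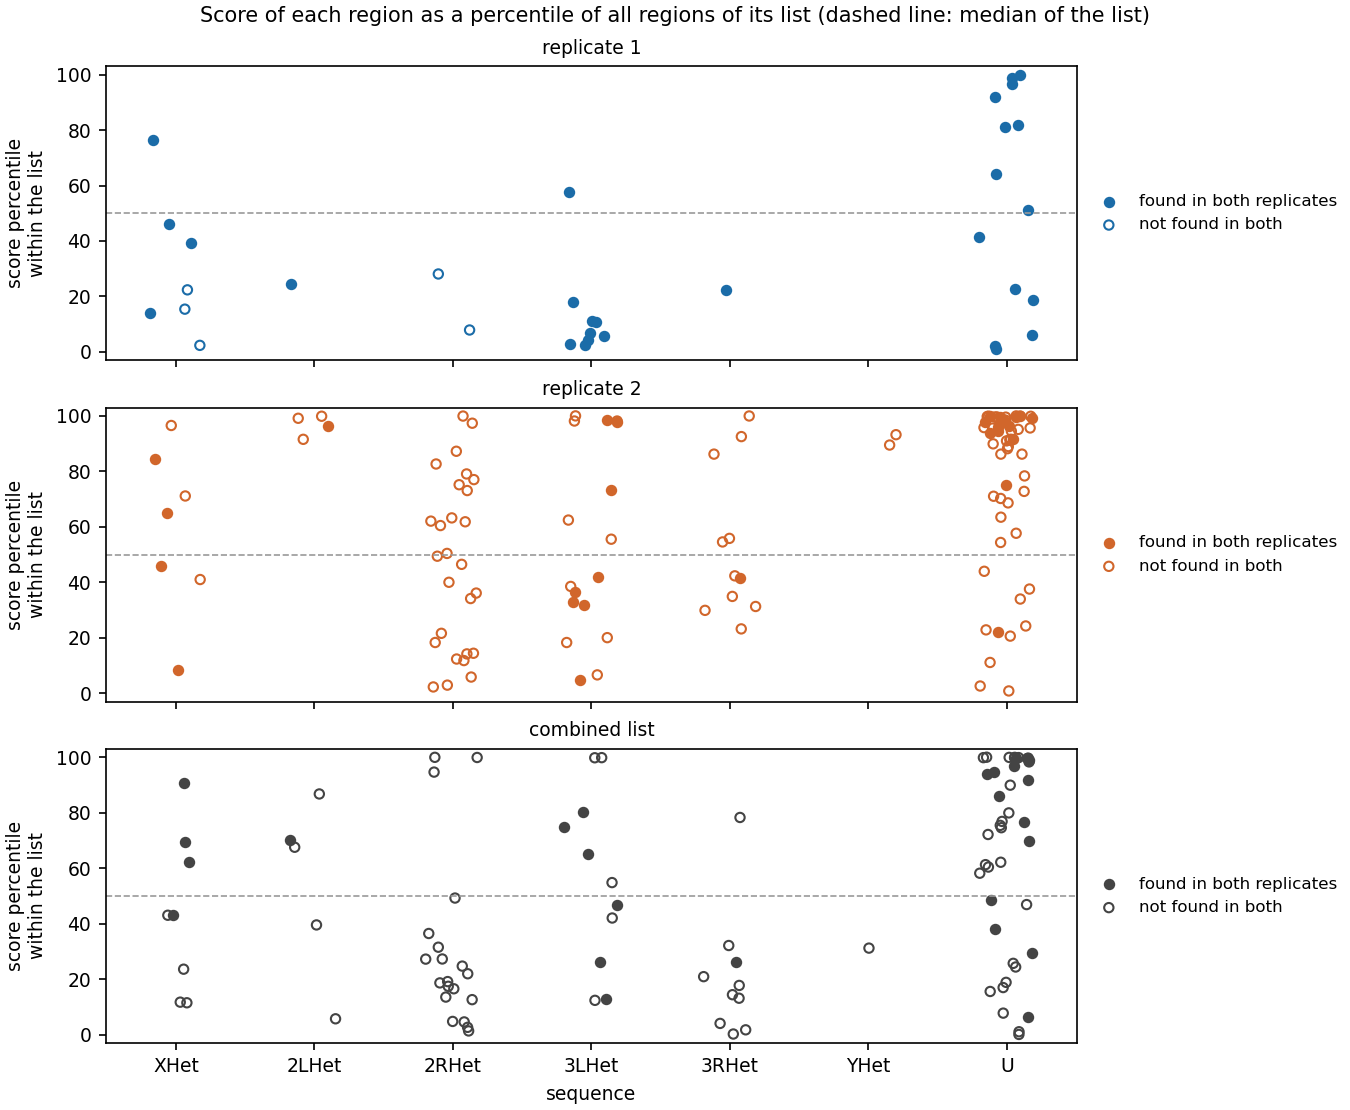
Score of every region of the 7 sequences as a percentile among all regions of its own list, with 1 panel per list; filled points were found in both replicates, open points were not, and the dashed line is the median of the list. Mapped heterochromatin regions of replicate 1 lie mostly below the line, and U regions of replicate 2 lie mostly near the top.

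Several of the highest scores belonged to regions that were not shared. The 3 highest replicate 2 regions missing from replicate 1 were 2137233 to 2139449 on 3LHet with 3.87, 1081017 to 1082487 on U with 3.51 and 101582 to 103800 on 3RHet with 3.24, ranks 1, 2 and 4 of that list; rank 2 was a tie. They were 2.22, 1.47 and 2.22 kb wide. The highest-scoring combined-list region of U, 5672208 to 5673225 with 3.61, ranked 2nd in the list, tied with 1 other region, was 1.02 kb wide and was found in neither replicate. The 6 combined-list regions of U found in neither replicate had a median score of 2.16, and the 14 found in both had 0.95. This order held in U only. In mapped heterochromatin the 17 found in neither had 0.46 and the 12 found in both had 0.68. The rest of the genome gave 0.48 for neither and 0.75 for both. In replicate 1, the 3 highest regions missing from replicate 2 had scores of only 0.62, 0.59 and 0.55, on 2RHet, XHet and XHet. They ranked 5597th, 6043rd and 6585th.

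Width and score were less closely tied over the pooled 7 sequences than in the rest of the genome. Across regions, Spearman's rho between them was 0.44 over 34 replicate 1 regions, 0.31 over 123 replicate 2 regions and 0.11 over 96 combined-list regions. The rest of the genome gave 0.75, 0.70 and 0.72. XHet alone gave 0.79 over 7 regions in replicate 1, -0.11 over 7 in replicate 2 and 0.93 over 8 in the combined list. Mapped heterochromatin in replicate 1 gave 0.63, as did chromosome 4. In replicate 2 and the combined list the 2 differed, at 0.23 and 0.07 for mapped heterochromatin against 0.68 and 0.60 for chromosome 4. These are descriptions across regions that share a library. Identical scores occurred in 10 of 34 regions in replicate 1, or 29.4%, 63 of 123 in replicate 2, or 51.2%, and 35 of 96 in the combined list, or 36.5%. Over all regions the shares with a score tied in the list were 29.2%, 49.1% and 25.5%. A tie counts any other region of the list with exactly the same deposited value.

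Where a region of 1 replicate met exactly 1 region of the other, the pair ranked higher in replicate 2 in most cases. There were 25 such pairs, 14 in U, 5 in 3LHet, 4 in XHet and 1 each in 2LHet and 3RHet. In 20 of the 25, or 80.0%, the score percentile was higher in replicate 2, against 52.3% of 3811 pairs in the rest of the genome. The median percentile of the pairs was 97.1 in replicate 2 and 57.6 in replicate 1 for U, and 46.0 and 13.9 for mapped heterochromatin. In U, 12 of 14 pairs stood above the 90th percentile of replicate 2. Pairs were wider in replicate 2 in 17 of 25 cases, and in 34.1% of the pairs of the rest. By kind of sequence these were 11 of 14 in U and 6 of 11 in mapped heterochromatin, of which XHet gave 1 of 4. Spearman's rho between the scores of the pairs was 0.45 over the 25 pairs, 0.49 over those of U, 0 over the 11 of mapped heterochromatin and 0.59 in the rest, given as a description across pairs from the same 2 libraries.

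**Figure D5:**
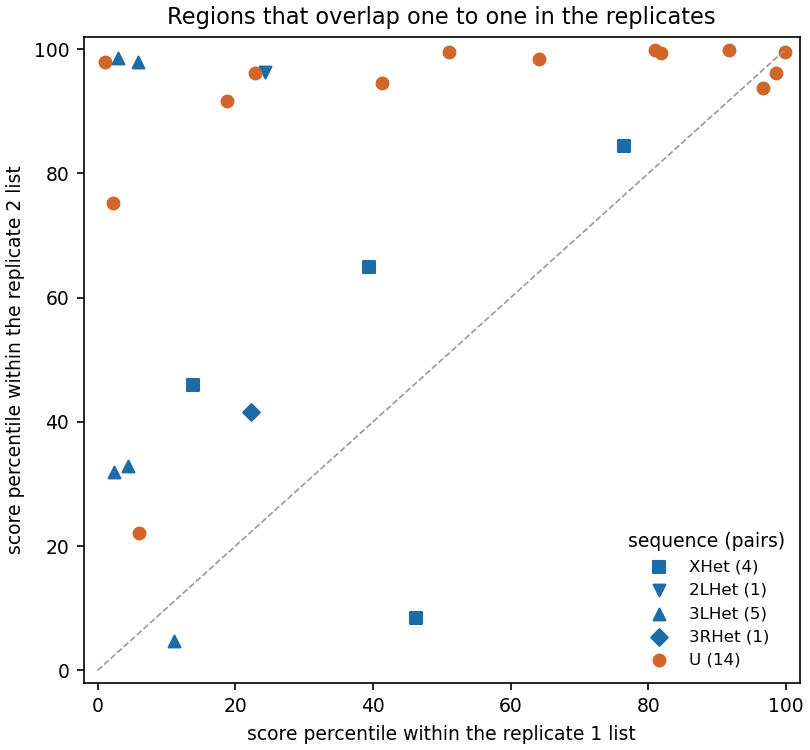
Score percentile of the 25 pairs of regions that overlap one to one, in the replicate 2 list (vertical) against the replicate 1 list (horizontal), with a symbol for each sequence and a dashed line of equal percentile. Of the 25 pairs, 20 lie above the line, and 12 of the 14 pairs of U lie above 90 on the vertical axis.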

How the data were processed

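H3K4me1 ChIP and input DNA of fly head nuclei were sequenced. The submitters' processing notes name Bowtie 0.12.7, a read aligner. The peak caller, its threshold, its filters and the treatment of reads that match several places are not given in the sources used here. The authors deposited 1 region list per ChIP replicate and 1 for the replicate set, each region with a score, an enrichment value of unstated scale. Coordinates are 1-based, on FlyBase release 5, per the file headers. Sequence lengths came from the same headers, and input files were not used here. Depth per library was unknown.

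Groups and replicate numbers are those of the labels. Regions were taken by sequence name; overlap meant at least 1 bp; islands joined gaps of at most 10 kb. Shares have exact Clopper-Pearson 95% intervals, which cover counting error only, and no other test was made. Score percentiles are ranks within a list. Interval functions were tested on simulated data. Named regions followed a written rule: every region of XHet, 2LHet and YHet, the 10 highest-scoring and 5 widest shared regions, the 3 highest per replicate missing from the other, and per sequence the highest score, largest island and longest empty stretch. Replicate 2 regions of 2RHet, 3LHet, 3RHet and U named as counterparts were chosen after their values were seen. Some other named places also fell outside the rule. On 2RHet these were 1333193 to 1334520 of replicate 1 and the island from 3197748 to 3208168. On 3LHet it was the island from 700207 to 712120. Replicate 1 regions named beside combined-list regions of 3LHet and 3RHet were outside it too. The members, lists and rules were chosen with earlier results of these data known. Alternatives covered stricter scores, other overlap rules, other island gaps, joined regions, each replicate alone and leaving out U. The gene table at hand is of release 6, so no gene or sequence is given. Python 3.11.15, pandas 2.3.3, numpy 2.4.6, scipy 1.17.1 and matplotlib 3.10.9 were used.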

Additional observations from a re-analysis of the deposited data

How the results depend on the processing

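Of 51 alternatives to 8 results, 36 stayed within the spread of the main value, 12 moved beyond it and 3 reversed its sign. The cause was not tested in any. For the 2 covered shares this spread was the SD of the 2 replicates around their mean. Each replicate alone could therefore only stay within it, and its place among the 36 says nothing about stability. The difference in median score between the 7 sequences and the rest was -0.03 in the combined list, pooled over U and mapped heterochromatin, but 0.24 in the replicate 2 list, 0.00497 against the 4 large autosome arms and 0.15 in the higher-scoring 50% of the list. The difference in median width was -894 bp, and moved to -224 bp in replicate 2, -1531 bp for regions found in both replicates and -2738 bp in the higher-scoring 50%. The covered share of XHet, 7.72%, was 11.4% in the combined list and 3.21% in the higher-scoring 50%. In that higher-scoring 50%, the share of replicate 1 regions found in replicate 2 was 100% (10 of 10), the share of replicate 2 regions found in replicate 1 was 12.3%, and 29.5% of combined-list regions lay in islands. A reciprocal overlap of 50% left 61.8% of replicate 1 regions found in replicate 2. Islands held 62.5% of regions with a gap of 50 kb and 69.1% without U.

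Without replicate 1, the mean covered share of the 7 sequences was 1.44%, and without replicate 2 it was 0.388%; for XHet these values were 6.64% and 8.80%. The share of combined-list regions found in the remaining replicate was 70.8% without replicate 1 and 32.3% without replicate 2. No read numbers were at hand, so how depth bears on these shares was not tested. No paired analysis was possible because the input libraries, which share their numbers with the ChIP libraries, gave no region list and the results come from no test.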
